A study of Mus musculus with 12 samples.

Results

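Interferon-stimulated genes (ISGs) were followed through the colon and the whole blood of mice from a dextran sulfate sodium (DSS) model of ulcerative colitis (UC). The set held 49 genes, found by their symbol in the authors' normalized tables of both tissues, out of 53801 genes in the count table. It was split by name into 11 type I genes (Ifit, Oas and Mx), 12 gamma-inducible GTPases (Gbp, Irgm, Igtp, Iigp1 and Tgtp) and 26 other members. The measurement was total RNA-seq of C57BL/6 mice that the study describes as male. Mice 1, 2 and 4 were labelled UC and had, by that label, received 1.5% DSS, a polymer that erodes the colonic epithelium, in their water for 7 days. Mice 7, 8 and 9 were labelled control, the label of animals given water without DSS, and every animal was killed on day 8. Each mouse gave 1 colon and 1 blood library, so that each of the 4 labelled groups held 3 libraries, and the study chose these animals from a larger cohort by their disease activity. The model is chemical injury of the gut, with no genetic change.

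Interferons are secreted cytokines that switch on an antiviral and antimicrobial programme in the cells that bind them. Type I and type III interferons act mainly through a complex that holds STAT2 and IRF9 and binds the interferon-stimulated response element (ISRE). Interferon gamma, made by T cells and NK cells, acts mainly at the gamma-activated site (GAS). Many ISGs answer to both, but the guanylate-binding proteins (Gbp) and immunity-related GTPases (Irgm, Igtp, Iigp1, Tgtp), which attack membrane compartments that hold microbes, are known for their strong answer to interferon gamma.

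Total counts lay between 69181049 and 103662306 in the colon libraries and between 80867247 and 142536804 in the blood libraries. Genes of the 7SL RNA took 35.9% to 65.4% of the blood counts. The label fields disagree on the tissue of every library. The field used here matches the markers, since Krt8 of gut epithelium had normalized counts of 303492 or more in each library taken as colon and at most 75.3 in each taken as blood. The disease labels stand against the markers of inflammation. In both tissues, all 7 neutrophil markers peaked in the same 3 animals, mouse 1 from the group labelled UC and mice 7 and 9 from the other. The authors' normalized tables list the mice in the order 1, 7, 9, 2, 4 and 8. Differences between the labelled groups may therefore not measure the effect of DSS. The groups are called labelled UC and labelled control, and values are given for mice 1, 2 and 4 and then for mice 7, 8 and 9. All values within a tissue are the authors' normalized counts, that is, counts divided by a size factor for the library.

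The type I genes and the GTPases lie in clusters of near relatives (GRCm38). The 4 Ifit genes span positions 34550694 to 34650009 of chromosome 19, and Mx1 and Mx2 span 97447035 to 97560900 of chromosome 16. Gbp2, Gbp3, Gbp5 and Gbp7 lie between 142493978 and 142638008 on chromosome 3, and Gbp4 and Gbp6 between 105115767 and 105293698 on chromosome 5. Igtp, Irgm1, Irgm2, Tgtp1 and Tgtp2 are on chromosome 11. Some of these relatives share sequence, so that reads may be divided between them in either way. Of all stretches of 50 bases in Tgtp2, 85.8% also occur in Tgtp1, and the share was 57.6% for Oas1a with Oas1g and 51.2% for Ifit3 with Ifit3b. Gbp6 shares 70.7% with other genes, mainly Gm43302. The values of these genes are uncertain for that reason.

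To set the classes beside their regulatory sequence, the 250 bases before each start site in RefSeq (GRCm38.p6) were searched on both strands. The ISRE was written as GAAANNGAAA and the GAS as TTCNNNGAA. Promoters were listed for 36 of the 49 members, with 40 start sites. The ISRE letters occurred in 20 of these 40 promoters, against 2.98% of all 32851 promoters, and the GAS letters in 9 of 40, against 7.02% of all. Among the classes, the ISRE letters occurred in 9 of 10 GTPase promoters, 5 of 9 type I promoters and 6 of 21 promoters of other members. The GAS letters occurred in 6 of 10 GTPase promoters, 2 of 9 type I promoters and 1 of 21 others. A match of letters is a description and does not show that a factor binds there.

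The promoters below are examples from the classes, and Isg15 and Rsad2 are shown because they were the members highest in blood per kilobase of exon. They do not stand for every member of a class. Not shown are the type I gene Oas1a, with both ISRE and GAS matches, and the GTPases Gbp3 and Irgm1, with no GAS match. Each run gives the 130 bases before the start, 5′ to 3′ along the gene, with the ISRE and GAS letters of either strand in capitals. The windows are Ifit1 (chr19:34640759-34640888, plus strand), Isg15 (chr4:156200819-156200948, minus strand), Rsad2 (chr12:26456453-26456582, minus strand) and Gbp2 (chr3:142620533-142620662, plus strand). In these promoters the capitals mark ISRE letters.
Ifit1: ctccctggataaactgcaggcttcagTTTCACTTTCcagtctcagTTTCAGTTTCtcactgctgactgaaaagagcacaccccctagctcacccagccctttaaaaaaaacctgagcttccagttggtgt
Isg15: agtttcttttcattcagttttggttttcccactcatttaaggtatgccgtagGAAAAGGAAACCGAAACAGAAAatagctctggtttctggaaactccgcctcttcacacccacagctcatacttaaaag
Rsad2: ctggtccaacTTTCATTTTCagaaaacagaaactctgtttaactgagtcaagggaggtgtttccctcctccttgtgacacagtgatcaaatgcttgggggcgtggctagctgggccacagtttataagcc
Gbp2: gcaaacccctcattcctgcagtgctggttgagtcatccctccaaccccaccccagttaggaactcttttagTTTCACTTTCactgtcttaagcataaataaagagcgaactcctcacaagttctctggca

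Ifit1 held ISRE matches that began 104 and 85 bases before the start, and Isg15 held matches at 78, 72 and 66 bases that run into each other. Gbp2, the most abundant GTPase of the colon per length, had an ISRE match at 59 bases and no GAS match in the 250 bases. In the next 4 promoters, Igtp (chr11:58199426-58199555, plus strand), Irgm2 (chr11:58214847-58214976, plus strand), Tgtp1 (chr11:48992247-48992376, minus strand) and Tgtp2 (chr11:49064213-49064342, minus strand), the first capitals are GAS letters and the second are ISRE letters.
Igtp: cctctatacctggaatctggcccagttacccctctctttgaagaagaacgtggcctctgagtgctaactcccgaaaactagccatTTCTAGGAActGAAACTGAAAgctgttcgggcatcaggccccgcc
Irgm2: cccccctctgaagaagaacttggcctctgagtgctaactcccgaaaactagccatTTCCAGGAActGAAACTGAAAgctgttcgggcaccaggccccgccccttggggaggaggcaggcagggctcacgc
Tgtp1: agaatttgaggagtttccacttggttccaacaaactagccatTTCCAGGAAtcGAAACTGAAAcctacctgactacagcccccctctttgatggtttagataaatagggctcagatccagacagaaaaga
Tgtp2: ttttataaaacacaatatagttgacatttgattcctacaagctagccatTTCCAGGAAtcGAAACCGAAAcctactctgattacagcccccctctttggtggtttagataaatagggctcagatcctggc

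In all 4, the ISRE match began 11 bases after the GAS match, with 2 bases between them. This spacing, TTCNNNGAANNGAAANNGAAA, was looked for only after it had been seen in these genes. It occurred in 5 of all 32851 promoters (0.0152%), namely these 4 and that of the predicted gene Gm12185 on chromosome 11. The 4 are copies of related genes and do not count as separate instances. Compared position by position without gaps, Igtp and Irgm2 were identical at 63 of 65 bases around the match, and Tgtp1 and Tgtp2 at 48 of 65. The printed Tgtp1 and Tgtp2 runs are shifted against each other after the ISRE match, which lowers their count. The 48 of 65 therefore understates how alike they are.

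In the colon, most members shared an order of the animals that cut across the labelled groups. For 39 of the 49 members, the 3 highest values were those of mice 1, 7 and 9, an order shown by 18.3% of the 22123 genes with a mean of at least 10 normalized counts. These 39 were 12 of 12 GTPases, 8 of 11 type I genes and 19 of 26 other members. That set of mice was taken up because earlier results had shown it. The lowest value was in mouse 2 for 29 members, in mouse 8 for 19 and in mouse 4 for 1, against 13.9%, 18.9% and 13.3% of all genes. No member had labelled groups that did not overlap, against 5.59% of the same genes.

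**Figure D1:**
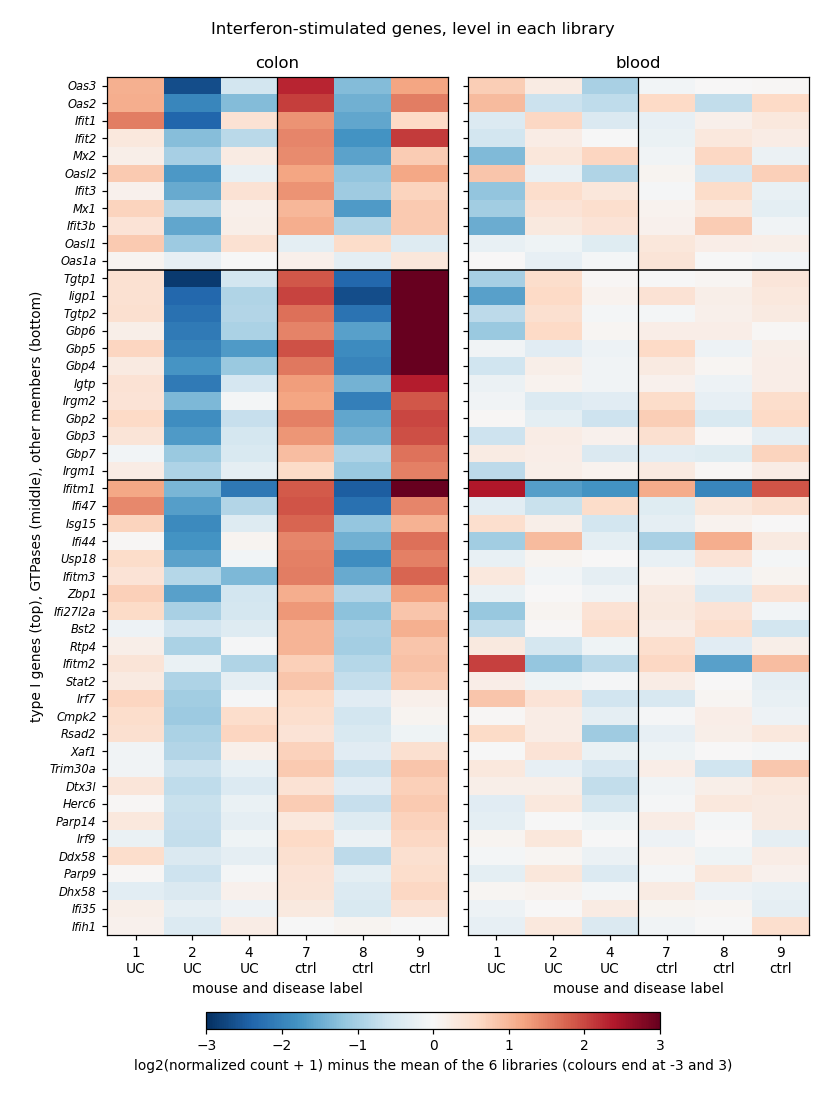
Heat map of log2(normalized count + 1) minus the mean of the 6 libraries of the tissue, for all 49 members (rows, by class) in the colon (left) and the blood (right); columns are mice with their disease label (UC, ctrl for control). In the colon most rows are high in mice 1, 7 and 9 and low in mice 2 and 8, with the 12 GTPases highest in mouse 9; in the blood few rows follow that order.

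Most sensors of foreign nucleic acid varied less than the rest of the set. Ifih1, which encodes the double-stranded RNA sensor MDA5, had normalized counts in the colon of 12346, 8492 and 13128 (labelled UC) and 11114, 11962 and 11166 (labelled control). Ddx58, which encodes the RNA sensor RIG-I, had 2680.5, 1397 and 1559.8 (labelled UC) and 2625, 1078 and 2612 (labelled control). Mouse 2 was the lowest for Ifih1 and mouse 8 for Ddx58, and the labelled groups overlapped for both genes. Dhx58, a regulator of these sensors, had colon values of 643, 594 and 875 (labelled UC) and 1056, 606 and 1239 (labelled control). Zbp1, a sensor of Z-form nucleic acid linked to necroptosis, ranged more widely, with 3915, 774 and 1624 (labelled UC) and 5059.6, 1291 and 5610.3 (labelled control). Zbp1 was high in mice 1, 7 and 9 and lowest in mouse 2, a 7.25-fold span, while Dhx58 spanned 2.09-fold with its highest values in mice 9, 7 and 4.

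The transcription factors of the type I response showed the same animals in a narrower range. Stat2 had colon values of 2639, 1151 and 1807 (labelled UC) and 3886, 1329.8 and 3721 (labelled control). Irf9, the partner of STAT2 in that complex, had 2265, 1574 and 2343 (labelled UC) and 3938, 2283 and 3940.3 (labelled control). Irf7, which amplifies type I interferon production, had 4683, 1460.4 and 2907 (labelled UC) and 4549, 2359.6 and 3321 (labelled control). Stat2 and Irf7 were highest in mice 1, 7 and 9, and Irf9 in mice 9, 7 and 4. Irf9 in mice 7 and 9 stood above the other 4 libraries, which lay between 1574 and 2343. Usp18, the protease that removes ISG15 and damps the receptor, had 437, 96.7 and 283 (labelled UC) and 851, 80.7 and 851 (labelled control), and mouse 8 was the lowest.

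Among the antiviral effectors, Isg15, a ubiquitin-like modifier, had colon values of 464, 76.6 and 224 (labelled UC) and 978, 129.8 and 603 (labelled control). Ifit1, which binds foreign RNA ends, had 3921, 259 and 1806 (labelled UC) and 3436, 458 and 2033 (labelled control). Ifit2 had 1488, 491 and 685 (labelled UC) and 3304, 347 and 5161 (labelled control). Each was low in mice 2 and 8, but the highest library differed, being mouse 7 for Isg15, mouse 1 for Ifit1 and mouse 9 for Ifit2. Ifit3 had colon values of 708, 226 and 877 (labelled UC) and 1644, 308 and 1025 (labelled control), and its 3 highest were in mice 7, 9 and 4.

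The Oas genes encode synthetases whose product activates RNase L. Oas2 had colon values of 680.1, 81.9 and 130.3 (labelled UC) and 1361, 117 and 932 (labelled control). Oas3 spanned 31.3-fold, the widest range of any type I gene, with 1623, 121 and 525 (labelled UC) and 3786, 313 and 1756 (labelled control). Oasl2, a relative whose protein is antiviral without being the main source of that product, had 4035, 712 and 2006 (labelled UC) and 5362, 1041 and 5294 (labelled control). All 3 were highest in mice 1, 7 and 9. Oas1a spanned 1.55-fold, with Ifih1 the narrowest range of the 49 members, with values of 4829, 3842 and 4495 (labelled UC) and 5082, 3716 and 5742 (labelled control). Oasl1 stood apart from its family with 3398, 931 and 2717 (labelled UC) and 1617, 2907 and 1522 (labelled control), and its 3 highest values were in mice 1, 8 and 4.

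Mx1 and Mx2 belong to a family of dynamin-like antiviral GTPases, but C57BL/6 mice carry defective alleles of both, and the annotation lists Mx2 as a polymorphic pseudogene. Mx1 had colon values of 666, 224 and 470.2 (labelled UC) and 846, 129 and 732 (labelled control). Mx2 had 149.7, 65.3 and 158 (labelled UC) and 354, 42.9 and 225 (labelled control). Mouse 7 was the highest and mouse 8 the lowest for both. Rsad2, which encodes the antiviral enzyme viperin, had 1413, 526 and 1596 (labelled UC) and 1349, 736 and 929 (labelled control). Its 3 highest values were in mice 4, 1 and 7, as they were for its neighbour Cmpk2 in a different order.

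As a class the GTPases had the widest ranges, and every one of the 12 was highest in mouse 9, as were 22.7% of all genes. Gbp2 had colon values of 12019, 2181 and 4856 (labelled UC) and 22416, 2668 and 31552 (labelled control). Gbp5, which also promotes inflammasome assembly, had 1356, 212 and 264 (labelled UC) and 3250, 232 and 7218 (labelled control). Gbp6 had 860.0, 173 and 395 (labelled UC) and 2149, 245 and 6325 (labelled control). Mouse 9 held the highest value of each, mouse 7 the next and mouse 1 the third, while mice 2, 4 and 8 were lower. The labelled control group thus held both the highest and some of the lowest values.

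The immunity-related GTPases followed the same order. Iigp1 had colon values of 3039, 432 and 1168 (labelled UC) and 9023, 347 and 23525 (labelled control). Tgtp2, which shares most of its sequence with Tgtp1, had 1246, 188 and 487 (labelled UC) and 2806, 192 and 8420.4 (labelled control). Igtp had 2400.1, 411 and 1263 (labelled UC) and 4214, 663 and 9088 (labelled control). The span from lowest to highest library reached 80.9-fold for Tgtp1 and 67.9-fold for Iigp1. Irgm1, a regulator of the other family members and of autophagy, had 5418, 2429 and 3796 (labelled UC) and 6865, 2126 and 13122 (labelled control), and its 6.17-fold span was the smallest of the 12. The median span was 27.1-fold over the GTPases, 7.53-fold over the type I genes and 3.14-fold over the other members, against 2.14-fold over all genes.

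The membrane proteins of the set were mixed. Ifitm1, which hinders virus entry, had colon values of 2183, 376 and 220.2 (labelled UC) and 3522, 176 and 7769 (labelled control). Ifitm3, its relative, had 3668, 1510 and 1078 (labelled UC) and 7925, 967 and 9237 (labelled control). Bst2, which tethers budding virus and is also a marker of plasmacytoid dendritic cells, had 694, 514 and 592 (labelled UC) and 1560.5, 392 and 1615 (labelled control). Ifitm1 spanned 44.0-fold, the widest of the 26 other members, and all 3 genes were highest in mice 9 and 7. Ifi27l2a, whose protein function is less well known, had 2519, 866 and 1182 (labelled UC) and 4160.5, 721 and 3015 (labelled control), and mouse 8 was the lowest.

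The remaining members were ADP-ribosylation and ubiquitin enzymes (Parp9, Parp14, Dtx3l, Herc6, Trim30a) and others. Among the 26 other members the span ran from 1.55-fold for Ifih1 to 44.0-fold for Ifitm1. Compared per kilobase of exon, the colon means of normalized counts were highest for Ifitm2 at 7438, Ifitm3 at 5994 and Gbp2 at 5014, and lowest for Ifi44 at 43.4 and Mx2 at 45.9. Ifitm2 shares 36.1% of its 50-base stretches with Gm45717, so its value is uncertain.

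To compare the classes in each library, a class level was taken as the median over its members of the log2 deviation from the colon mean, with a pseudocount of 1. The type I level was 0.66, -1.51 and 0.16 (labelled UC) and 1.34, -1.31 and 0.78 (labelled control). The GTPase level was 0.42, -1.94 and -0.62 (labelled UC) and 1.50, -1.77 and 2.68 (labelled control). The median over all genes stayed between -0.01 and 0.02. Mouse 7 had the highest type I level and mouse 9 the highest GTPase level. The type I level minus the GTPase level was 0.24, 0.43 and 0.78 in mice 1, 2 and 4 and -0.16, 0.46 and -1.91 in mice 7, 8 and 9. Mouse 9 stood far below the others in that difference, which came to 0.48 ± 0.28 (SD, n = 3) in the group labelled UC and -0.53 ± 1.23 (SD, n = 3) in the group labelled control. These differences are given with no test.

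**Figure D2:**
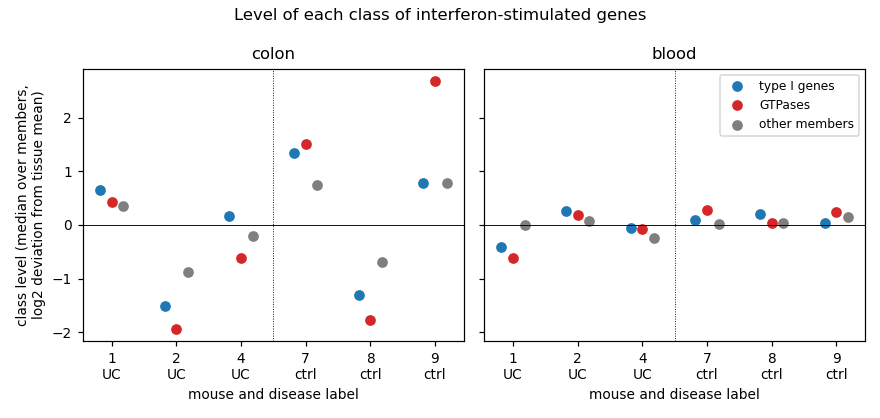
Class level per library: the median over the members of a class of the log2 deviation from the tissue mean, in colon (left) and blood (right), with type I genes in blue, GTPases in red and other members in grey. In the colon both are low in mice 2 and 8, but they part in mouse 9, with the GTPase level at 2.68 and the type I level at 0.78, and in mouse 4; in the blood all levels lie between -0.61 and 0.27.

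By its labels, the comparison of UC with control colon asked which genes differed after DSS. Of the 22238 genes tested with edgeR's quasi-likelihood test, 1 was called at an adjusted p of at most 0.05 and a log2FC over 1 in size (0.0045%), and it was no member. Of the 49 members, 0 were called by edgeR or by DESeq2, while 1 had an unadjusted p under 0.05 with edgeR and 10 with DESeq2. Over all 22238 genes, 313 had such a p with edgeR and 558 with DESeq2. In the joint edgeR fit of all 12 libraries, 12 members and 415 of 23258 genes had one. Irf9 ranked first among the members by p, with a log2FC of -0.73 ± 0.27 (SE) and an edgeR adjusted p = 1.0. Gbp6 followed with -2.61 ± 1.12 and Gbp7 with -1.37 ± 0.61, each with an edgeR adjusted p = 1.0. In sign, 45 of the 49 members had a log2FC below 0, while Cmpk2, Ifit1, Oasl1 and Rsad2 were above 0, as were 48.96% of all genes tested.

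The median log2FC was -0.73 over the type I genes, -2.15 over the GTPases and -0.69 over the other members, against -0.01 over all genes tested. Within the GTPases it ran from -2.82 for Iigp1 to -0.93 for Irgm1, and within the type I genes from -1.73 for Ifit2 to 0.20 for Oasl1. The SE of the GTPases ran from 0.61 to 1.36. The medians depended on single animals. Without mouse 9 the GTPase median was -1.14 and without mouse 1 it was -2.90, while the type I median was -0.14 without mouse 7, -0.34 without mouse 2 and -1.15 without mouse 8. The number of members with an unadjusted p under 0.05 went from 1 to 28 without mouse 8 and to 6 without mouse 1, and to 0 without mouse 2, 4, 7 or 9. Over all genes, it went from 313 of 22238 to 1942 of 23122 without mouse 8 and to 795 of 22754 without mouse 1. None of the 49 was called in any of these fits.

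**Figure D3:**
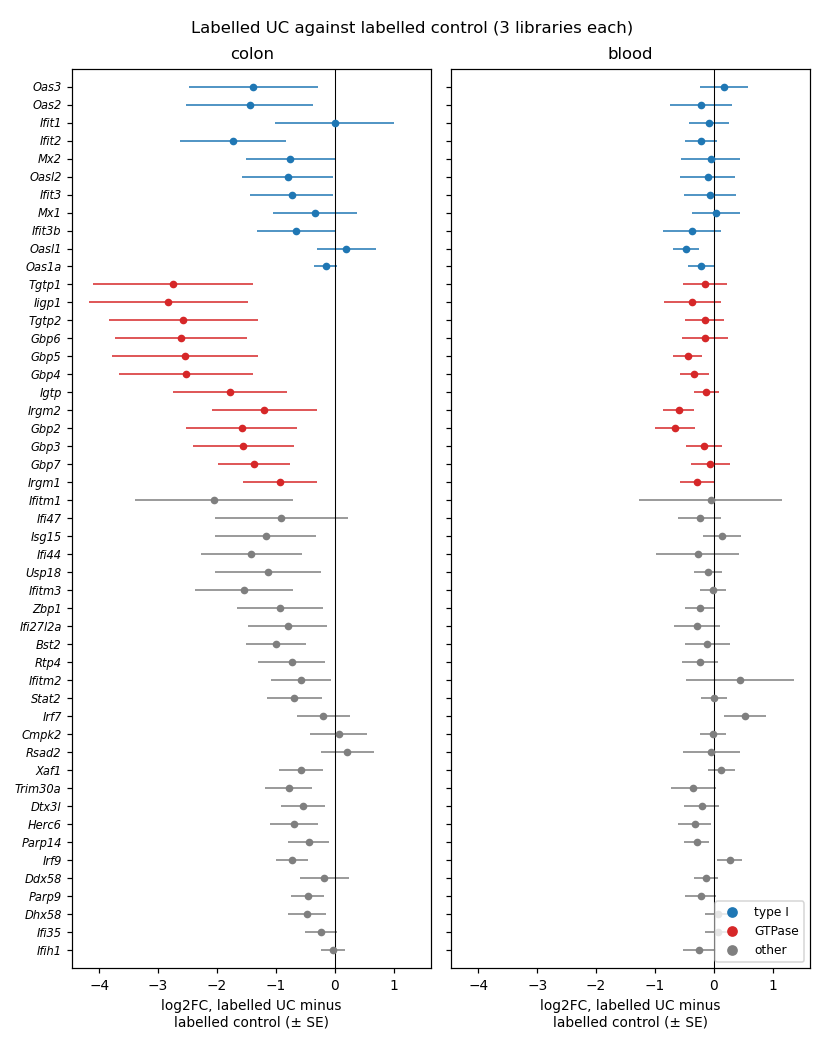
Fitted log2FC of labelled UC minus labelled control (x axis) with its SE (bars) for each member (rows), in colon (left) and blood (right), 3 libraries per group. In the colon 45 of 49 points lie below 0 with wide bars, the GTPases (red) lowest; in the blood the points lie near 0.

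Of the ligands, 6 genes of type I and type III interferons, among them 1 of the Ifna family, and Ifng were looked up. Ifnb1, Ifna4, Ifnk, Ifne, Ifnl2 and Ifnl3 had 0 counts in each of the 12 libraries. By counting error alone, 0 reads would allow up to 3 reads per library. The counts here derive from transcript coverage and are not read tallies, so that limit is not on their scale. Ifng, the gene of interferon gamma, had raw colon counts of 4, 0 and 3 (labelled UC) and 9, 8 and 131 (labelled control). The labelled groups did not overlap, but 5 of the 6 libraries held fewer than 10 counts, and the gene did not pass the filter for the colon test. Mouse 9, the library with the highest GTPase level, also had the most Ifng. In the blood, Ifng had 14, 13 and 8 and then 23, 6 and 12 counts.

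Genes known for their answer to interferon gamma also varied widely in the colon. Cxcl9, which attracts T cells, had colon values of 705, 17.4 and 75.9 (labelled UC) and 1544, 25.2 and 8817 (labelled control). Cxcl10 had 422, 33.1 and 235 (labelled UC) and 529.9, 190.3 and 6237 (labelled control). Ido1, which breaks down tryptophan, had 3152, 40.1 and 313 (labelled UC) and 4314, 116 and 3489 (labelled control). Cxcl9 and Cxcl10 were highest in mouse 9 and Ido1 in mouse 7, and each was lowest in mouse 2. Irf1, a transcription factor induced early by interferon gamma, had 16477, 6521 and 14077 (labelled UC) and 18576, 10059.8 and 25848 (labelled control), and it was highest in mice 9, 7 and 1. Of the 35 genes in the lists of ligands, receptors, signalling, negative feedback and gamma-induced genes, 28 could be tested for colon and 26 for blood. The labelled comparisons called 0 of them with edgeR, and 1 in colon (Cxcl11) and 0 in blood had an unadjusted p under 0.05.

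Markers of neutrophils and of monocytes and macrophages had their 3 highest colon values in mice 1, 7 and 9, as did 3 of the 6 T and NK cell markers, while the 3 B cell markers did not. The summed normalized count of the 7 neutrophil markers was 34132, 7531 and 16571 (labelled UC) and 26143, 17813 and 65002 (labelled control). In mice 2, 4 and 8 nearly all of the sum was Ly6g, at 21494, 7350 and 16355 (labelled UC) and 20824, 17455 and 25479 (labelled control), which unlike the other 6 was called higher in colon than in blood. S100a9, another of the 7, had 5434, 16.5 and 31.3 (labelled UC) and 2137, 129.8 and 18061 (labelled control), with mice 2, 4 and 8 far below the others. The sum of the 6 monocyte and macrophage markers was 11471, 5139.8 and 6169.9 (labelled UC) and 16381, 4966 and 17978 (labelled control). That of the 6 T and NK cell markers, among them Ifng, was 695, 67.9 and 192 (labelled UC) and 769, 131 and 596 (labelled control). Cxcr2 of neutrophils was at 0 in mice 4 and 8. The part of these cells in the level of the ISGs was not tested. In a bulk tissue, fewer cells of a type and less RNA per cell cannot be told apart.

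In the blood the ISGs did not share 1 order of the animals. The 3 highest values lay in mice 1, 7 and 9 for 10 of 49 members, against 11.8% of the 16370 genes with a mean of at least 10. These 10 were Oas2, Oasl2, Gbp2, Gbp5, Irgm2, Trim30a, Ifitm1, Ifitm2, Ifitm3 and Rtp4. The median span over the 49 members was 2.10-fold, against 2.18-fold over all genes. Of the 12 GTPases, 8 were lowest in mouse 1, as were 28.6% of all genes, the largest share of any blood library.

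Ifitm1 had the widest range in blood, with 8279, 497 and 452 (labelled UC) and 3359, 402 and 5789 (labelled control). Ifitm2 had 6498, 695 and 901 (labelled UC) and 2418, 502 and 2999 (labelled control). The neutrophil markers summed to 457940, 54670.3 and 47702 (labelled UC) and 153321, 39805 and 351102 (labelled control). Ifitm1 and Ifitm2 were highest in mouse 1, then 9, then 7, as was the neutrophil receptor gene Cxcr2 at 15319, 3367 and 2515 (labelled UC) and 5739.8, 2021 and 12164 (labelled control). The part of neutrophils in these values was not tested. Ifitm3 varied less, with 1665, 1273 and 1119 (labelled UC) and 1439, 1220.3 and 1437 (labelled control).

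Among the type I genes in blood, Oas2 had 1493, 497 and 462 (labelled UC) and 1186, 467 and 1178 (labelled control). Oasl2 had 5769, 2794 and 1727 (labelled UC) and 3446, 2279.7 and 5309 (labelled control). Both were high in mice 1, 7 and 9. Other type I genes went the other way. Ifit3 had 293, 963 and 850.1 (labelled UC) and 654, 976 and 575 (labelled control), Mx1 had 196, 534 and 575 (labelled UC) and 436, 504 and 330.1 (labelled control), and Mx2 had 52.7, 167 and 208 (labelled UC) and 123, 203 and 117 (labelled control). All 3 were lowest in mouse 1 and highest in mice 2, 4 and 8, in varying order. Ifit1 had 2261, 4631 and 2199 (labelled UC) and 2518, 3349 and 3710.1 (labelled control), with mouse 2 the highest, and Ifit2 had 1758, 3029.9 and 2573 (labelled UC) and 2267, 3212 and 3033 (labelled control). Oas1a had 722, 599 and 686 (labelled UC) and 929.6, 714 and 674 (labelled control), a 1.55-fold span.

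For the GTPases in blood, Gbp2 had 1827, 1458 and 1170 (labelled UC) and 2988, 1296 and 2722 (labelled control). Gbp5 had 646, 549 and 623 (labelled UC) and 1055, 623 and 784 (labelled control). Both were highest in mouse 7. Iigp1 had 68.4, 319 and 229 (labelled UC) and 288, 239 and 263 (labelled control), Tgtp2 had 1782, 4273 and 2974 (labelled UC) and 2972, 3403 and 3675 (labelled control), and Gbp6 had 207, 676 and 466 (labelled UC) and 517, 514 and 461 (labelled control). These 3 were lowest in mouse 1 and highest in mouse 2. Irgm1 had 961, 1862 and 1779 (labelled UC) and 1985, 1695 and 1920.4 (labelled control), also lowest in mouse 1. Igtp had 3769, 4583 and 3936 (labelled UC) and 4643, 3820.5 and 4908 (labelled control), the narrowest span of any member in blood.

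The sensors and, apart from Irf7, the factors had narrow ranges in blood. Ddx58 had 2059.8, 2234 and 1897 (labelled UC) and 2306, 1953 and 2512 (labelled control). Ifih1 had 929.8, 1380.2 and 816 (labelled UC) and 1029, 1098 and 1575 (labelled control). Ddx58 spanned 1.32-fold, and its labelled groups overlapped, as did those of Ifih1. Dhx58 had 621, 638 and 572 (labelled UC) and 699.9, 537 and 506 (labelled control), and Zbp1 had 575, 659 and 612 (labelled UC) and 790.2, 499 and 887 (labelled control). Stat2 had 1019, 811 and 862 (labelled UC) and 1034, 895 and 739.7 (labelled control). Irf9 had 2339, 2765 and 2176 (labelled UC) and 1969, 2222 and 1825 (labelled control), and Usp18 had 852, 1051 and 1001 (labelled UC) and 844, 1309 and 945 (labelled control). No sensor or factor of these had labelled groups apart. Bst2 had 437, 742 and 1028 (labelled UC) and 851, 1028 and 494 (labelled control) and Ifi27l2a had 1103, 2551 and 3293 (labelled UC) and 2982, 3218 and 2280.3 (labelled control), both lowest in mouse 1.

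A few members were very abundant in blood. Rsad2 had 536891, 418974 and 172298 (labelled UC) and 302810, 403894 and 448011 (labelled control). Isg15 had 24101, 19284 and 11489 (labelled UC) and 14160.3, 18373 and 17098 (labelled control). Oas3 had 30831, 22048 and 9423 (labelled UC) and 17505, 18577 and 18988 (labelled control). All 3 were highest in mouse 1 and lowest in mouse 4. Of all genes in blood with a mean of at least 10, 30.5% were highest in mouse 1, the largest share of any library. In mouse 4, 15.2% were lowest. Irf7 had 5642, 4214 and 2129 (labelled UC) and 2259.6, 3283 and 2730.4 (labelled control), again highest in mouse 1 and lowest in mouse 4. Per kilobase of exon, the blood means of normalized counts were 87769 for Rsad2 and 23039 for Isg15, ahead of 5553 for Ifi27l2a, and 6.86 for Ifi44 was the lowest.

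Red cell genes ran through the libraries in like orders. Alas2, the first enzyme of haem synthesis in red cells, had 7241870, 7132900 and 3828110 (labelled UC) and 4361240, 6709710 and 5881820 (labelled control). Slc4a1, the red cell anion exchanger, had 402160, 178987 and 53572 (labelled UC) and 114970, 117359 and 158841 (labelled control). From highest to lowest, the libraries of Oas3 and Slc4a1 ran through mice 1, 2, 9, 8, 7 and 4. Those of Isg15, Irf7 and Alas2 ran through mice 1, 2, 8, 9, 7 and 4. These matches were picked out after their values were seen. The part of red cells, or of their precursors, in the level of these members was not tested.

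**Figure D4:**
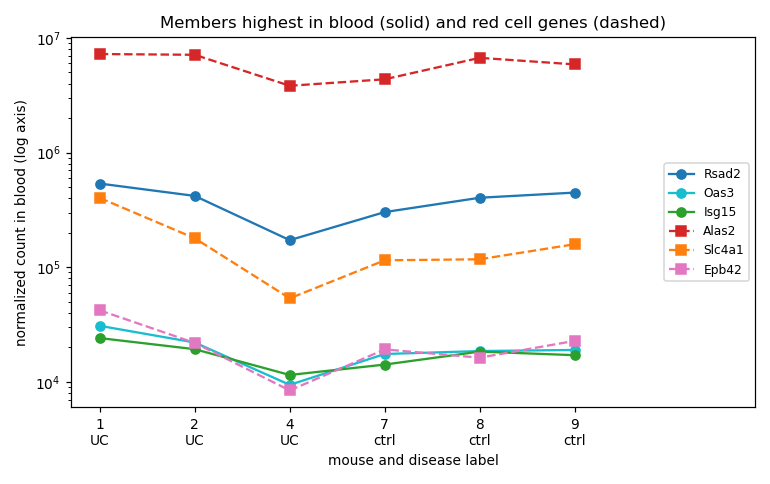
Normalized counts in blood (log axis) for each mouse with its disease label, for Rsad2, Oas3 and Isg15 (solid, circles) and the red cell genes Alas2, Slc4a1 and Epb42 (dashed, squares); lines join the values of a gene and imply no order of the mice. All 6 genes are highest in mouse 1 and lowest in mouse 4. Of all genes in blood, 30.5% were highest in mouse 1 and 15.2% lowest in mouse 4.

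In the labelled comparison of the blood, edgeR called 0 of 16759 genes (0%), against 6 with DESeq2, and 241 genes had an unadjusted p under 0.05 with edgeR. Of the 49 members, 0 were called by either tool and 0 had an unadjusted p under 0.05 with either. Irgm2 ranked first by p, with a log2FC of -0.60 ± 0.27 (SE) and an edgeR adjusted p = 1.0. Oasl1 followed with -0.47 ± 0.22 and Gbp2 with -0.65 ± 0.34, each with an edgeR adjusted p = 1.0. Oasl1 had normalized counts of 246, 263 and 223 (labelled UC) and 359.9, 327 and 323 (labelled control). It was the only member whose labelled groups did not overlap in blood, 1 of 49 against 6.5% of genes. The median log2FC was -0.10 over the type I genes, -0.23 over the GTPases and -0.10 over the other members, against 0.04 over all genes. Scaled by library size only, these medians were -0.48, -0.55 and -0.41, against -0.27 over all genes. Without mouse 1, 4 members and 819 of all 17444 genes had an unadjusted p under 0.05, and the GTPase median was -0.05. Without mouse 2 it was -0.50.

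Whether the labelled effect differed between colon and blood was tested with an interaction term. Of 23258 genes, 1 was called (0.0043%), and 0 were called when mouse identity entered as a replicate block. None of the 49 members was called by edgeR or DESeq2, and 1 had an unadjusted p under 0.05 with edgeR, against 2 with DESeq2. Irf9 had a difference of log2FC of -1.01 ± 0.35 (SE) with an edgeR adjusted p = 1.0. Gbp6 had -2.46 ± 1.25 and Gbp4 had -2.20 ± 1.21, each with an edgeR adjusted p = 1.0. No GTPase passed this test of the difference between the tissues. Without mouse 8, 14 members had an unadjusted p under 0.05, and without mouse 1, 7 had. Over all genes the count was 793 of 23258 with edgeR and 1133 with DESeq2. With edgeR it was 1261 of 24064 without mouse 8 and 1098 of 23925 without mouse 1.

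The tissues themselves differed in many members. Of the 49, 3 were called higher in colon and 29 higher in blood, with TMM scaling over the 12 libraries. Among all 23258 genes, 37.7% were called higher in colon and 20.8% higher in blood. The members called higher in blood were 8 of 11 type I genes, 5 of 12 GTPases and 16 of 26 others. The kits for RNA extraction and for removal of ribosomal or globin RNA differed between the tissues and cannot be told apart from tissue. The direction also depends on the scaling. With library size only, 20 members were called higher in colon and 4 higher in blood. Of all 23258 genes, 17887 were then called higher in colon and 1757 higher in blood. The median of all genes moved from 0.46 to 2.57 on the log2 scale. Relative to that median, the type I genes lay at -2.05 and the GTPases at -1.03 with TMM, and at -2.03 and -1.01 with library size only. A change of scaling shifts all genes by nearly the same amount, so this likeness follows from its construction.

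Rsad2 had the largest difference. It ranged from 2.87 to 8.70 CPM (median 6.42) in colon and from 3132 to 9820.4 CPM (median 7296) in blood, with a log2FC of -10.15 ± 0.52 (SE, adjusted p = 5.6e-08). Isg15 ranged from 0.42 to 5.57 CPM (median 1.90) in colon and from 209 to 441 CPM (median 319) in blood, and its log2FC was -7.21 ± 0.63 (adjusted p = 2.17e-06). The highest colon library of each was below the lowest blood library by a wide gap. Oas3 ranged from 0.66 to 21.6 CPM (median 5.93) in colon and from 171 to 564 CPM (median 338) in blood, with -5.71 ± 0.77 (adjusted p = 5.77e-05). Herc6, a ligase that attaches ISG15 in mice, ranged from 4.77 to 13.6 CPM (median 7.29) in colon and from 61.0 to 107 CPM (median 97.0) in blood, with -3.43 ± 0.29 (adjusted p = 1.57e-06). Usp18, which removes ISG15, ranged from 0.45 to 4.85 CPM (median 1.98) in colon and from 15.6 to 23.3 CPM (median 17.7) in blood, with -3.01 ± 0.53 (adjusted p = 0.000402). Neither gene overlapped between the tissues. With library size only Usp18 was no longer called (log2FC of -0.87), while the other 4 were still called higher in blood.

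The 3 members called higher in colon were of different kinds. Ifih1 ranged from 46.3 to 71.6 CPM (median 65.2) in colon and from 14.8 to 28.6 CPM (median 19.4) in blood, without overlap, and its log2FC was 1.62 ± 0.18 (adjusted p = 1.45e-05). Oasl1 ranged from 5.08 to 18.8 CPM in the colon and from 4.05 to 6.73 CPM in the blood, with 1.22 ± 0.29 (adjusted p = 0.00319). Iigp1 ranged from 1.94 to 130.4 CPM (median 11.6) in colon and from 1.25 to 5.63 CPM (median 4.52) in blood, with 2.44 ± 0.79 (adjusted p = 0.0161). The Oasl1 and Iigp1 values of the tissues overlapped. The Iigp1 value was largest in colon mouse 9, at 130.39 CPM, and the gene was not called without mouse 9 (log2FC of 1.85) or mouse 1 (1.76), with the replicate block (1.76) or with limma-voom (1.68). Without mouse 8, 6 of the 49 members were called higher in colon, against 8937 of all 24064 genes. Ddx58, the other RNA sensor, had a log2FC of -1.82 ± 0.25 (adjusted p = 6.77e-05) and was called higher in blood with TMM, but lay at 0.28 and was not called with library size only. Ifih1 was higher in colon under both, at 1.62 and 3.70.

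Relatives within a family also parted. Igtp ranged from 2.24 to 50.4 CPM (median 10.1) in colon and from 68.1 to 89.1 CPM (median 76.2) in blood, with no overlap of the tissues. Irgm2 ranged from 4.13 to 61.2 CPM (median 19.2) in colon and from 9.95 to 20.4 CPM (median 11.9) in blood, and the tissues overlapped. The 2 genes have nearly the same promoter stretch shown above. Their annotated spans overlap on the same strand and share 162 exon bases (8.0% of Igtp), where reads cannot be told apart. Igtp had a log2FC of -2.47 ± 0.55 (adjusted p = 0.002), but -0.36 and no call with library size only. Irgm2 had 0.73 ± 0.51 (adjusted p = 0.217) and was not called, but with library size only it lay at 2.84 and was called higher in colon. The difference between the pair was not tested, and 11.8% of the 50-base stretches of Igtp also occur in Irgm2. Oas1a, at 0.97 ± 0.16, missed the fold threshold, while Oas2 was called higher in blood at -2.55 ± 0.69 (adjusted p = 0.00639). With library size only Oas1a was called higher in colon at 3.10, and Oas2 was not called at -0.45.

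**Figure D5:**
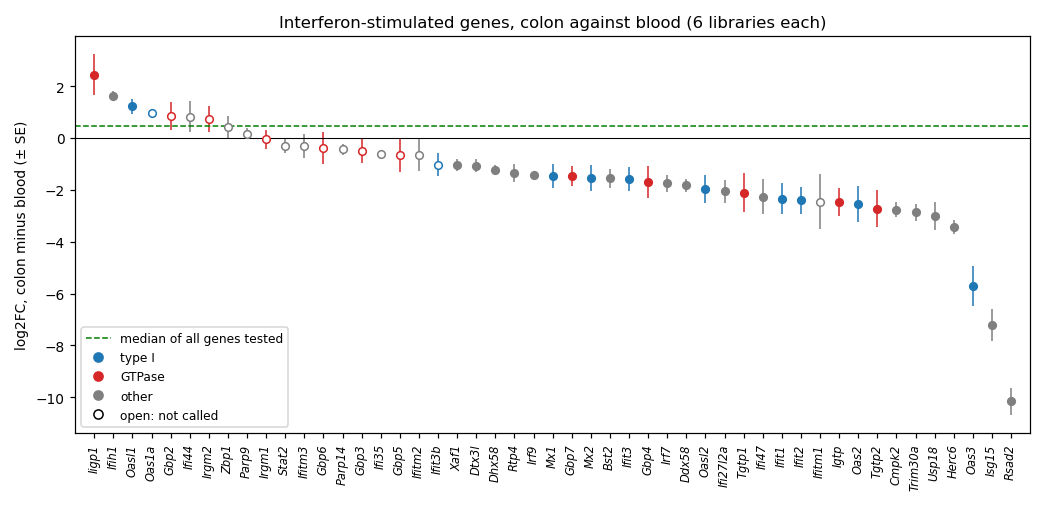
Fitted log2FC of colon minus blood (y axis) with its SE for each of the 49 members, 6 libraries per tissue; filled points were called, open points were not, and the dashed line is the median of all genes tested (0.46). Rsad2, Isg15 and Oas3 lie lowest, at -10.15, -7.21 and -5.71, and 3 filled points lie above 0.

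Of the other pathway genes, 29 of 35 were tested between the tissues, and 6 were called higher in colon and 10 higher in blood. The gamma-induced list was split, with Cxcl9, Cxcl10, Cxcl11 and Ido1 called higher in colon and Ciita, the master regulator of MHC class II genes, called higher in blood, and these 5 calls held with library size only. Irf1 was not called with TMM (0.27 ± 0.31, adjusted p = 0.456) and was called higher in colon with library size only (2.41). Of the cell type markers, 6 of 7 for neutrophils and all 6 for T and NK cells were called higher in blood with TMM. Ifng, 1 of the T and NK cell markers, was not called with library size only (0.12). Of the 6 monocyte and macrophage markers, 4 were called higher in blood and 1 higher in colon with TMM. With library size only, Adgre1, Csf1r and Ly6c2 lost their call and Ccr2 stayed higher in blood (-1.33). Under that scaling C1qa (6.96) and Cd68 (2.44) were called higher in colon. Over all genes tested with TMM, 37.7% were called higher in colon and 20.8% higher in blood.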

How the data were processed

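Total RNA was sequenced from colon and whole blood of the same 6 mice, after removal of ribosomal RNA and, in blood, of globin RNA. The authors mapped trimmed reads to GRCm38 with STAR and quantified Ensembl genes with StringTie 1.3.4c, per the labels and the study's methods, with no strand set. The deposited table holds gene counts derived from transcript coverage, so they are whole numbers without being read tallies. The deposited normalized tables, 1 per tissue, hold a signal, each count divided by a size factor of its library by the authors, so levels were compared only within a tissue. Their columns were all used, and overlapping or antisense genes cannot be told apart.

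The test was edgeR 4.0.16 under R 4.3.3 (TMM, filterByExpr, glmQLFTest, Benjamini-Hochberg over all genes tested). Labelled comparisons were fitted within a tissue, following the study, while the interaction and tissue contrasts used all 12 libraries. A gene was called at an adjusted p of at most 0.05 and, outside the interaction, an absolute log2FC over 1. SEs were derived from the log2FC and its F statistic. TMM factors ran from 0.347 to 2.32 over the 12 libraries. CPM values use these factors. The fits were tested on simulated data. Alternatives were DESeq2 1.42.0, limma-voom (limma 3.58.1), other scalings and filters, 1 joint fit, a replicate block and leaving out each mouse.

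The members and lists were chosen with earlier results of these data known. Levels were described for members listed by role, and fit values for the 3 members with the lowest p in each labelled comparison and the interaction, and for up to 5 in each direction among those called between tissues. Oas3, Oasl1, Ifitm2 and Cmpk2 levels, the pathway genes and the fits of Ddx58, Igtp, Irgm2, Oas1a and Oas2 were added after their values were seen. The study took both tissues from the same animals, and the titles number them alike. Deviations from labelled group means over 15802 genes correlated between same-numbered colon and blood libraries with r from 0.0047 to 0.2267. Some items are not reported here. With 3 mice against 3, the p-values of the labelled comparisons set a group difference against the spread between these animals. Those of the interaction and tissue contrasts used all 12 libraries, which the main fit did not pair by mouse.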

Additional observations from a re-analysis of the deposited data

How the results depend on the processing

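No member was called in either labelled comparison or in the interaction under any alternative run. The number of all genes called was small and moved. In the colon it was 1, but 6 with DESeq2, 0 with limma-voom and 0 without any 1 mouse. In the blood it was 0, but 6 with DESeq2, 1 with library size only and from 0 to 3 with a mouse left out (3 without mouse 1). For the interaction it was 1, but 20 with DESeq2, from 1 to 2 with a mouse left out, and 0 when mouse identity was the replicate block. The block moved no other count of calls by over 1.5 times, though Iigp1 lost its tissue call. Library size only moved the medians of labelled UC minus control blood to -0.48 (type I) and -0.55 (GTPases). Between the tissues it moved the medians to 0.54 (type I) and 1.56 (GTPases), the calls of all genes from 8759 higher in colon and 4845 in blood to 17887 and 1757, and those of members to 20 and 4. Members called higher in colon ran from 2 to 6 with a mouse left out (6 without mouse 8). Over all genes that count ran from 8497 of 23981 (without mouse 4) to 8937 of 24064 (without mouse 8). With library size only, the members with a tissue log2FC above 0 went from 9 to 34 of 49. The share over all genes went from 59.5% to 87.4%. Of the 17 log2FC values of genes chosen by rank, 0 turned their direction, and the 5 that lost their call were Iigp1 in 4 and Usp18 in 1. Depth limits what can be said of genes with few counts, such as Ifng, and the labels stand against the inflammation markers.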

Other observations

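Other genes of the interferon pathway differed among themselves in their library order in blood. Ifnlr1, the receptor subunit particular to type III interferons, had normalized counts of 962, 51.2 and 72.0 (labelled UC) and 248, 41.4 and 428 (labelled control), highest in mice 1, 9 and 7. Socs3, a feedback inhibitor of cytokine signalling, had 3658, 315 and 424 (labelled UC) and 989, 329 and 1120.3 (labelled control), with the same 3 mice highest. The summed neutrophil markers were highest in these mice as well, and their part in either value was not tested. Isg20, an interferon-induced exonuclease that is not among the 49 members, had 80989, 57151 and 29511 (labelled UC) and 35244, 45301 and 54072 (labelled control) in blood and 917, 1016 and 875 (labelled UC) and 1335, 696 and 707 (labelled control) in colon. Its blood libraries fell in the same order as those of Oas3 and Slc4a1, and it was called higher in blood than in colon, with a log2FC of -7.46 ± 0.35 (SE, edgeR, adjusted p = 3.83e-08). These genes were picked out after their values were seen.

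In the colon, Socs1 and Socs3, both feedback inhibitors, had 457, 107 and 203 (labelled UC) and 986, 137 and 1369.5 (labelled control) and 6641, 503 and 359.6 (labelled UC) and 11259.9, 368 and 14614 (labelled control). Both were highest in mouse 9, then 7, then 1, and their labelled groups overlapped. B cell markers did not follow that order, since the summed count of the 3 markers was 88.1, 585 and 1144 (labelled UC) and 1507, 169 and 1792 (labelled control).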
